A study of Mus musculus with 7 samples.

Results

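IGHV1-80, IGHV1-81 and IGHV1-82 are 3 neighbouring V genes near the far end of the mouse immunoglobulin heavy chain locus, among the IGHV1 genes that lie farthest from the D genes. Their cells were taken from single-cell B cell receptor libraries as every cell with exactly 1 productive heavy chain whose first V call, without its allele, was one of the 3. These were 1426 of 17381 such cells (8.20%), made up of 441 IGHV1-80, 546 IGHV1-81 and 439 IGHV1-82 cells. All 1426 calls named a single gene and its allele 01, and the V call of the 10x pipeline in the same tables named the same gene in all 1426.

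The libraries came from lymph nodes of female mice aged 10 to 11 months that were either wild-type (WT) or 5xFAD. 5xFAD is a transgenic model of Alzheimer's disease whose transgenes are driven by the neuronal Thy1 promoter, and it deposits amyloid in the brain. Deep cervical (dCLN), superficial cervical (sCLN) and inguinal (iLN) nodes each gave 1 WT and 1 5xFAD library, so that each of the 6 groups is 1 library. Hashtagged cells were combined into composite samples, and how many animals stand behind a library, and whether the nodes share animals, is not given in the labels. Tests over libraries therefore measure only the spread between these libraries. A further library pooled cells of every node and genotype and was kept out of the comparisons.

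A heavy chain V region is assembled in a developing B cell by joining 1 V, 1 D and 1 J gene segment. Distal V genes reach the D and J segments only when the locus contracts and loops, a process that depends on factors such as Pax5, YY1 and CTCF. The IGHV1 genes, also called the J558 family, are the largest V family of the C57BL/6 locus. The naive B cell carries unmutated V genes on IgM and IgD, whereas activated B cells can switch to IgG, IgA or IgE and acquire V mutations through the enzyme AID.

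In GRCm38 the 3 genes lie on the minus strand of chromosome 12. IGHV1-80 spans 115912344 to 115912776, with a leader exon of 46 bases (115912731 to 115912776) and a V exon of 305 bases (115912344 to 115912648). IGHV1-81 spans 115920279 to 115920712, with a leader exon of 46 bases (115920667 to 115920712) and a V exon of 305 bases (115920279 to 115920583). IGHV1-82 spans 115952538 to 115953005 and has 2 annotated transcripts, of which one has a V exon of 305 bases (115952538 to 115952842). They begin 2387 kb, 2395 kb and 2427 kb beyond the most distal D gene, IGHD3-1, and 6, 5 and 4 annotated V genes lie farther out. The germline V sequences below, as the deposited alignments give them, show how alike the 3 genes are. Capitals mark the first and second complementarity-determining regions (CDR1 and CDR2), the loops that touch antigen.
IGHV1-80: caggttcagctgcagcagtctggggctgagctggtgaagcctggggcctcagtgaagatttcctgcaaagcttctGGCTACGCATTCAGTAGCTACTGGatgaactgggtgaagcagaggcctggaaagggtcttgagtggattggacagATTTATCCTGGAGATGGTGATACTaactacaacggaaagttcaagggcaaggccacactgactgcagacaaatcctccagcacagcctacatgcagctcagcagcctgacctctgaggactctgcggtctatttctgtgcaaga
IGHV1-81: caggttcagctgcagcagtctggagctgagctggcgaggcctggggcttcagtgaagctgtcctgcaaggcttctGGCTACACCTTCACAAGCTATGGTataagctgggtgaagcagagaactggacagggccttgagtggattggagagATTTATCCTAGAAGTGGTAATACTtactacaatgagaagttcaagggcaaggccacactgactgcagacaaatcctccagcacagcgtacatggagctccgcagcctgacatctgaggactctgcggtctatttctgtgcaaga
IGHV1-82: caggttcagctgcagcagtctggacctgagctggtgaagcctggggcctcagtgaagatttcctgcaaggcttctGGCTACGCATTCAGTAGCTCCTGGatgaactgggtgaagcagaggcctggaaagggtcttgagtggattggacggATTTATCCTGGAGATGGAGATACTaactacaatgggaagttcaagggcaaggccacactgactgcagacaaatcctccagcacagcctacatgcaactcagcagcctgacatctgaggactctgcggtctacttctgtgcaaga
Each of these sequences of 294 bases was found in a GENCODE transcript of its own gene. IGHV1-80 and IGHV1-82 are near copies, with 11 differing bases (96.3% identity) of which 3 change a residue. Counted from 1 at the first base of the V region, with the IGHV1-80 base first, those 3 are G25C in framework 1, A95C in CDR1 and A149G in framework 2. IGHV1-81 differs from IGHV1-80 at 33 bases in codons that change 18 residues, and from IGHV1-82 at 34 bases that change 20 residues. Over the first 288 bases, the closest gene to IGHV1-81 was IGHV1-85, with 21 differing bases.

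The 3 genes were used at nearly constant shares in all 6 libraries. IGHV1-81 made up 3.10% ± 0.268 of cells (SD, n = 6 libraries), IGHV1-82 2.51% ± 0.197 and IGHV1-80 2.49% ± 0.371, and together they made up 8.09% ± 0.524. For IGHV1-81, with WT before 5xFAD, the dCLN libraries had 3.47% and 3.15%, the sCLN libraries 3.31% and 2.84%, and the iLN libraries 2.77% and 3.04%. It ranked between the third and the seventh most used IGHV gene in these libraries. For IGHV1-80 the shares in the same order were 2.13%, 2.89%, 2.97%, 2.42%, 2.41% and 2.09%. IGHV1-82 had 2.58%, 2.82%, 2.24%, 2.50%, 2.55% and 2.37%. The highest share was 1.42 times the lowest for IGHV1-80, 1.25 times for IGHV1-81 and 1.26 times for IGHV1-82.

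IGHV1-81 stood above both neighbours in each of the 6 libraries. Its share exceeded that of IGHV1-80 by 0.613 percentage points on average, and IGHV1-82 minus IGHV1-81 was -0.588 points, each with an exact two-sided sign-flip p of 0.03125, the smallest that 6 libraries can give. Over the 15 comparisons between members this became a Benjamini-Hochberg adjusted p of 0.0938 in the same exact test, so neither passed 0.05. With 6 libraries that limit can be passed only if most of the 15 comparisons reach the smallest p. IGHV1-82 and IGHV1-80, the near copies, differed by 0.0245 points with 4 libraries in one direction and 2 in the other (exact p = 0.844).

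**Figure D1:**
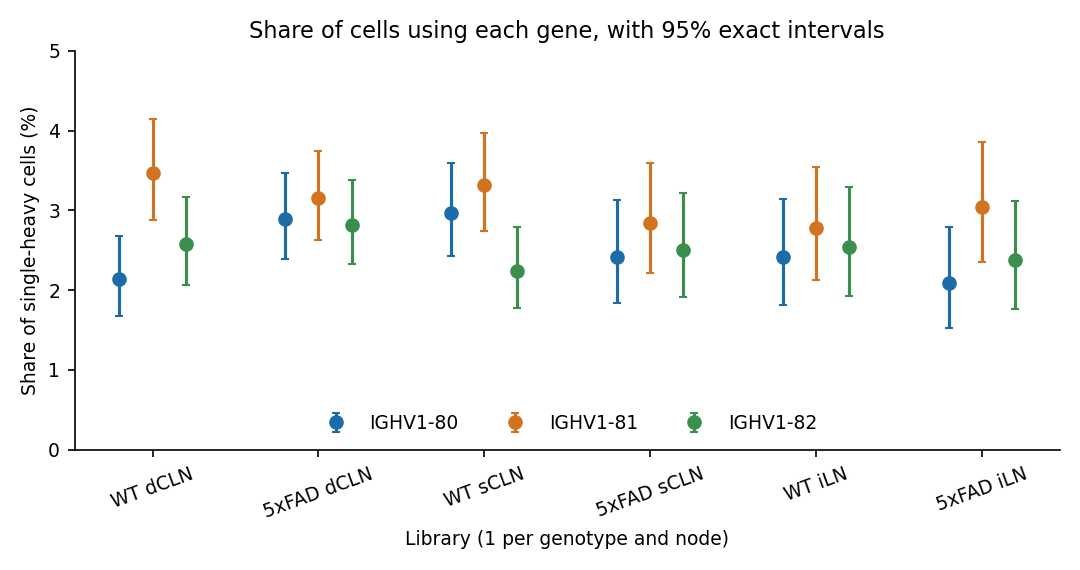
Share of single-heavy cells (y axis, percent) that used IGHV1-80, IGHV1-81 or IGHV1-82 in each of the 6 libraries (x axis). Points are shares and bars are exact Clopper-Pearson 95% intervals. The IGHV1-81 point is above the other 2 in every library, between 2.77% and 3.47%, and its interval is apart from a neighbour's only for IGHV1-80 in the WT dCLN.

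Between genotypes, the shares of each of the 3 genes had overlapping intervals in every node (exact Clopper-Pearson, covering counting error only). The widest gap was that of IGHV1-80 in the dCLN, where 72 of 3374 WT cells and 113 of 3904 5xFAD cells gave a ratio of 1.36, 5xFAD to WT. In the sCLN and iLN that ratio was 0.816 and 0.867, the opposite direction. The 3 genes together went from 8.18% to 8.86% in the dCLN, from 8.52% to 7.77% in the sCLN and from 7.73% to 7.50% in the iLN. The mean difference, 5xFAD minus WT, was -0.0987 percentage points (SD 0.725, n = 3 nodes, exact sign-flip p = 0.75, where 3 nodes cannot give less than 0.25). Where an IGHV gene had at least 0.5% of the cells of either library it was counted, and 0 of the 3 genes were 1.5-fold or more apart in any node. The same was true of 5 of 59 genes in the dCLN (8.47%), 7 of 58 in the sCLN (12.1%) and 11 of 60 in the iLN (18.3%), so that 0 of 3 is near what the other genes gave.

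Of 11 measures compared between genotypes, 1 had the same sign in all nodes. This was junction length, the number of residues from the conserved cysteine to the conserved tryptophan around the third CDR. It averaged 13.9 residues in 5xFAD and 14.0 in WT and was lower in 5xFAD in 3 of 3 nodes, with differences of -0.0235, -0.101 and -0.203 residues in the dCLN, sCLN and iLN (exact p = 0.25, adjusted 0.917). The other 10, among them switched share, IgD share, V mutation, IGHJ4 share and lambda share, each had both signs among the nodes (exact p between 0.5 and 1). In this test equal signs in 3 nodes always give 0.25. Junction length of each of the 3 genes alone had both signs among the nodes. Other IGHV1 cells had longer junctions in 5xFAD in each node. Their WT and 5xFAD means were 13.88 and 14.00 (dCLN), 13.86 and 14.04 (sCLN), and 14.03 and 14.08 (iLN).

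Use varied from gene to gene along the distal end. Of the 16 annotated V genes from IGHV1-74 outward, 6 are pseudogenes and 10 had cells, which together held 14.3% of all cells. IGHV1-80, IGHV1-81 and IGHV1-82 held 57.4% of those. Nearer to D, mean shares were 1.08% for IGHV1-74, 1.56% for IGHV1-75, 1.38% for IGHV1-76, 0.355% for IGHV1-77 and 0.775% for IGHV1-78. Beyond IGHV1-82, IGHV1-84 was at 0.144% and IGHV1-85 was at 0.728%. In each library, all 3 genes were thus above every other gene of this stretch. IGHV1-26, the most used V gene of the data, was at 6.22%.

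**Figure D2:**
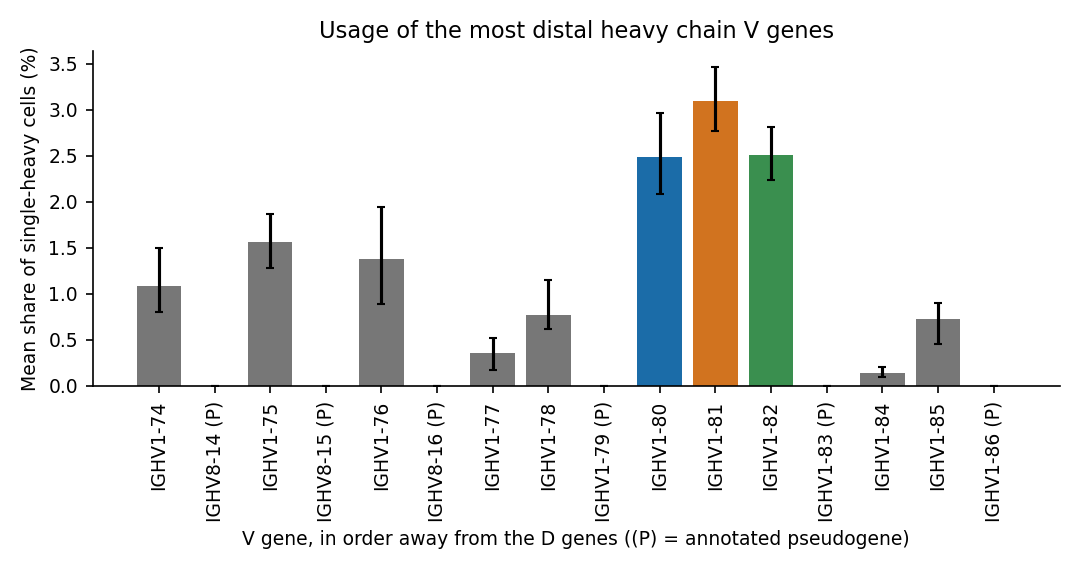
Mean share of single-heavy cells over the 6 libraries (y axis, percent) for the V genes from IGHV1-74 to the distal end, in genomic order away from D (x axis, not to scale). Black bars run from the lowest to the highest library. The 3 genes stand between 2.49% and 3.10%, and the pseudogenes, marked (P), have no cells.

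Among the IGHV genes with a mean share of 1% or more, those whose log2 shares, centred over the 6 libraries, lay nearest to the summed profile were IGHV1-52, IGHV3-6 and IGHV8-8. Their mean absolute differences from it were 0.0440, 0.0690 and 0.0998 log2 units. This ranking took no account of counting error. IGHV1-52, at a mean share of 1.58%, was highest in the 2 dCLN libraries (0.0982 and 0.0992 above its mean), where the summed genes were at 0.0181 and 0.134.

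Most cells of the 3 genes carried IgM or IgD. Over the 6 libraries 988 cells were IgM and 359 IgD, and 51 of the 1398 cells with a constant region call were class-switched (3.65%, 2.73 to 4.77), namely 16 IgG1, 16 IgG2c, 14 IgG2b, 4 IgA and 1 IgG3 cell. Cells of the other IGHV1 genes were switched in 254 of 8543 cases (2.97%, 2.62 to 3.36). The difference within libraries averaged 0.546 percentage points, with 4 libraries above and 2 below 0 (exact p = 0.344). That mean was 0.956 points without the WT dCLN, 0.326 without the 5xFAD dCLN, 0.319 without the WT sCLN and 0.272 in cells with exactly 1 light chain.

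The near copies IGHV1-80 and IGHV1-82 had the lowest and the highest switched share. IGHV1-82 had 27 switched cells of 428 (6.31%, 4.20 to 9.05), IGHV1-81 14 of 538 (2.60%, 1.43 to 4.33) and IGHV1-80 10 of 432 (2.31%, 1.12 to 4.22). By library, IGHV1-82 was at 3.49% (WT) and 8.33% (5xFAD) in dCLN cells, 10.7% and 3.51% in sCLN cells, and 3.77% and 6.12% in iLN cells. IGHV1-80 had 0%, 5.36%, 3%, 0%, 2% and 0% in that order, where the zeros allow up to 4.17%, 5.36% and 7.14%. IGHV1-81 had 3.48%, 2.46%, 3.60%, 2.99%, 0% and 1.56%, where 0 of 59 cells allows up to 5.08%.

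IGHV1-82 was the higher in 6 of 6 libraries against either neighbour. Its mean difference was 4.26 points from IGHV1-80 and 3.63 points from IGHV1-81 (exact p = 0.03125 each, adjusted p = 0.0938 over the 15 comparisons, not past 0.05). In the WT dCLN the margin over IGHV1-81 was only 0.0101 points, 3 of 86 cells against 4 of 115. The 27 cells belonged to 21 clones, against 14 for IGHV1-81 and 8 for IGHV1-80. With 1 cell per clone, that with the most captured heavy chain transcripts, the shares were 4.75% (19 of 400 cells, 2.88 to 7.32), 2.86% and 1.98%. IGHV1-82 was then above IGHV1-81 in 4 and above IGHV1-80 in 5 of the 6 libraries, with mean differences of 2.23 and 3.30 points. A single clone of 7 IgG1 cells and 1 IgM cell supplied most switched IGHV1-82 cells of the 5xFAD dCLN. Its kept cell was the IgM cell, so with 1 cell per clone this clone counted as unswitched. Without the 5xFAD dCLN the mean differences, with all cells, were 3.19 and 4.51 points. In cells with exactly 1 light chain the shares were 5.17% (20 of 387 cells), 2.48% and 2.53%, and IGHV1-82 was above IGHV1-81 in 4 and above IGHV1-80 in 6 of the 6 libraries.

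**Figure D3:**
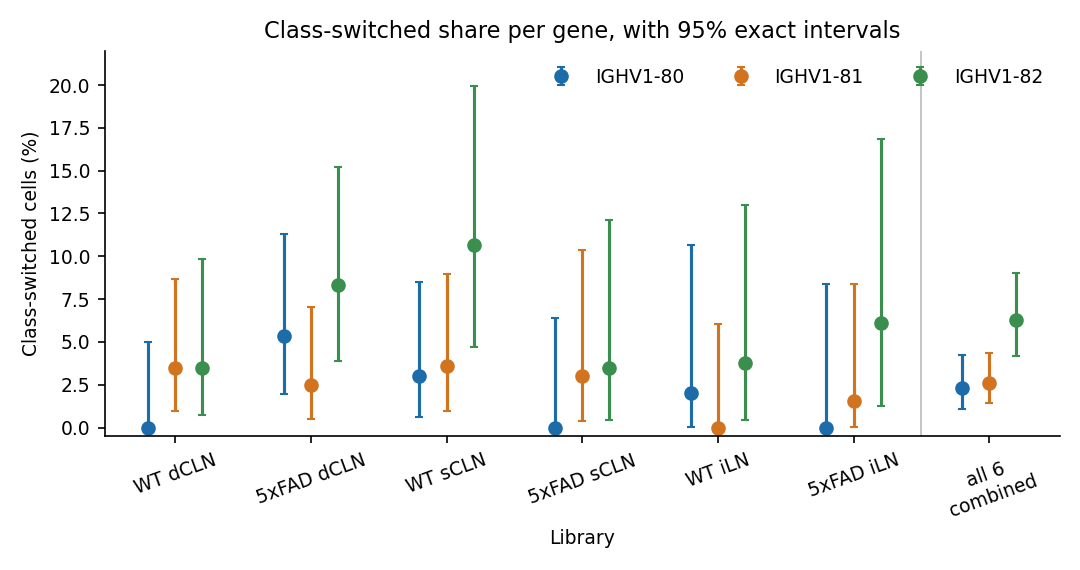
Class-switched share (y axis, percent of cells with a constant region call) of IGHV1-80, IGHV1-81 and IGHV1-82 cells in each library and over all 6 combined (x axis). Points are shares with exact Clopper-Pearson 95% intervals. Combined, IGHV1-82 is at 6.31% and the other 2 are at 2.60% and 2.31%, and the interval of IGHV1-82 (4.20 to 9.05) overlaps those of both others slightly, as do the intervals within each library.

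The isotypes of switched cells also differed in make-up, on few cells. IGHV1-82 had 10 IgG1, 10 IgG2c, 5 IgG2b and 2 IgA cells, of which 7 IgG1 cells were the 1 clone. IGHV1-81 had 6 IgG2b, 5 IgG2c, 2 IgG1 and 1 IgA cell, and IGHV1-80 had 4 IgG1, 3 IgG2b and 1 each of IgG2c, IgG3 and IgA.

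Among unswitched cells, contigs called IgD were more frequent for the 3 genes than for other IGHV1 genes in 5 of 6 libraries. Naive B cells make IgM and IgD from the same transcript by alternative splicing, and each contig received 1 call. In the WT libraries the IgD share was 31.2% against 29.1% (dCLN), 26.6% against 25.5% (sCLN) and 35.8% against 23.6% (iLN). In the 5xFAD libraries it was 16.7% against 17.8%, 26.7% against 19.8% and 30.5% against 21%. The mean difference was 5.10 points (SD 5.25, exact p = 0.0938, adjusted p = 0.281 over 9 measures), with the inguinal libraries at 12.3 and 9.45 points.

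The IgD call moved with depth. Unswitched cells of the 3 genes had a median of 12 heavy chain UMIs (unique molecular identifiers, 1 per captured transcript), against 10 for other IGHV1 genes, and were the more deeply covered in 5 of 6 libraries. The exception was the WT iLN, the library with the largest IgD difference, with medians of 10 and 11. Within bins of UMIs the IgD share of the 3 genes and of other IGHV1 genes was 70.6% and 56.2% at 1 to 2 UMIs, 64.5% and 51.4% at 3 to 5, 35.8% and 25.8% at 6 to 10, 16.9% and 10.4% at 11 to 20, and 2.56% and 2.67% at 21 or more. Intervals were apart in the bins from 3 to 20 UMIs. With other IGHV1 cells weighted to the UMI distribution of the 3 genes, an alternative added once the data had been seen, the mean difference was 8.28 points and had the same sign in 6 of 6 libraries (exact p = 0.03125, adjusted p = 0.141). IGHV1-81 had the lowest IgD share, 22.3% at a median of 13 UMIs, against 30.1% for IGHV1-80 and 28.7% for IGHV1-82, each at a median of 11. Other IGHV1 cells, likewise combined over the 6 libraries, were at 22.9%. Without weighting, the higher IgD share thus lay in IGHV1-80 and IGHV1-82 and not in IGHV1-81. The weighted difference was not computed per gene.

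Lambda light chains were more frequent than among other IGHV1 cells in 5 of 6 libraries. Of the cells with exactly 1 light chain, 69 of 1292 were lambda (5.34%, 4.18 to 6.71), against 246 of 7892 (3.12%, 2.74 to 3.52). The WT libraries had 5.22% against 3.03% in the dCLN, 3.77% against 3.07% in the sCLN and 6.12% against 3.88% in the iLN. The 5xFAD libraries had 6.56% against 2.62%, 3.57% against 3.70% and 6.99% against 2.79%. The mean difference was 2.19 points (exact p = 0.0625, adjusted p = 0.281). Each gene contributed 23 lambda cells, at 5.71% for IGHV1-80, 4.68% for IGHV1-81 and 5.78% for IGHV1-82. Against cells of all other V genes the mean difference was 0.825 points, with 4 of 6 libraries above 0.

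**Figure D4:**
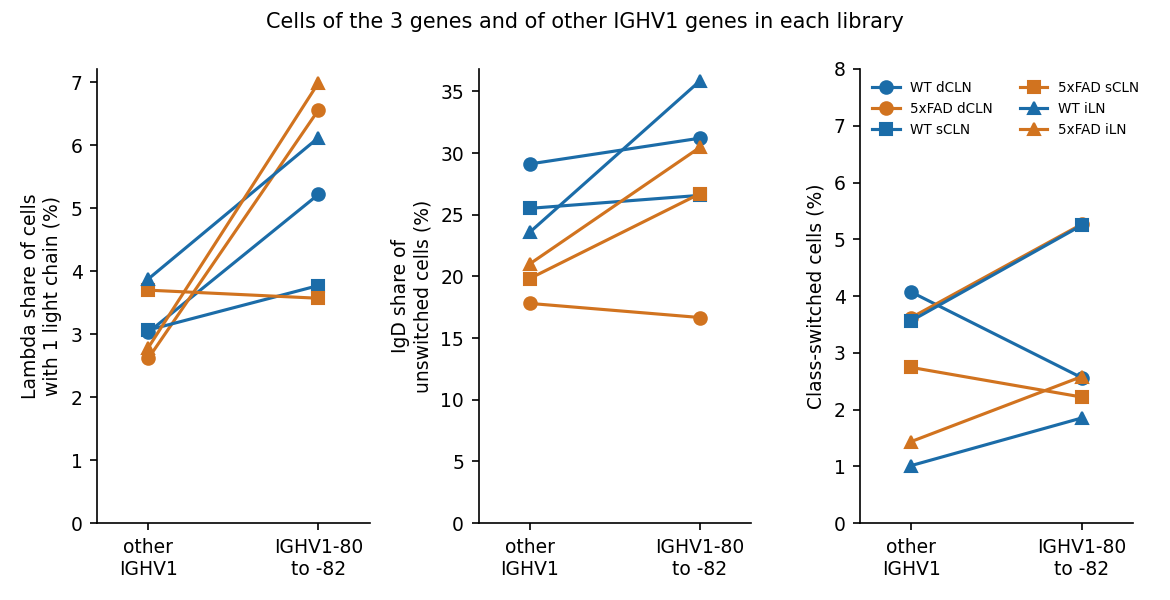
Lambda share, IgD share of unswitched cells and class-switched share (y axes, percent) of other IGHV1 cells and of IGHV1-80, IGHV1-81 and IGHV1-82 cells (x axis), with 1 line per library, WT in blue and 5xFAD in orange. Lines rise in 5 of 6 libraries for lambda and for IgD, and in 4 of 6 for switching.

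IGLV1, the most used mouse lambda V gene, accounted for 62 of the 69 lambda cells, with 20, 21 and 21 cells of IGHV1-80, IGHV1-81 and IGHV1-82. It was 1 of the 3 light chain V genes with the largest ratio to other IGHV1 cells, at 4.80% against 2.61% (ratio 1.84, intervals apart). The other 2 were IGKV8-27, with 16 cells at 1.24% against 0.520% (ratio 2.38, intervals apart), and IGKV2-137, with 37 cells at 2.86% against 1.47% (ratio 1.95, intervals apart). The 62 IGLV1 cells held 58 distinct receptors, the 16 IGKV8-27 cells 16 and the 37 IGKV2-137 cells 31. These 3 were picked as the largest ratios, so their size is a description.

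The leading light chain partner of IGHV1-81 differed from those of IGHV1-80 and IGHV1-82, which had the same top 2 in reverse order. IGHV1-81 paired most often with IGKV1-135, in 36 of 491 cells (7.33%, 5.19 to 10.0), against 2.89% (2.53 to 3.28) of other IGHV1 cells and 1.87% of IGHV1-80 and IGHV1-82 cells. The pairing made up 9.43% (dCLN), 7.07% (sCLN) and 11.3% (iLN) of IGHV1-81 cells in WT libraries, and 4.39%, 4.84% and 8.77% in 5xFAD libraries. All 6 values were above those of other IGHV1 cells in the same library, by 1.66 to 7.84 points, and the 36 cells held 34 distinct receptors. Its next partners were IGKV6-15 (5.09%), IGKV1-117 (4.48%) and, with 21 cells each, IGKV1-110, IGLV1 and IGKV9-120 (4.28%).

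IGHV1-82 paired most often with IGKV10-96, in 28 of 398 cells (7.04%, 4.73 to 10.0), against 5.17% of other IGHV1 cells, where IGKV10-96 is common as well. IGLV1 followed with 5.28%, then IGKV17-127 with 20 cells (5.03%, 3.10 to 7.65) against 2.50% (2.16 to 2.86) and, with 16 cells each, IGKV12-46 and IGKV3-5 (4.02%). The 20 IGKV17-127 cells held 18 distinct receptors, and their share was above that of other IGHV1 cells in 5 of 6 libraries. In inguinal nodes it was 2.04% against 1.99% (WT) and 0% against 2.17% (5xFAD). IGHV1-80 had no partner above 5%, with IGLV1 in 20 of 403 cells (4.96%), IGKV10-96 in 3.97%, IGKV6-17 in 3.72% and IGKV14-111 in 3.23%. The leading partners were named by rank, so no test was made of them.

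In junction length and N bases the 3 genes were close to other IGHV1 genes. Junctions averaged 14.0 residues in both (13.97 and 13.98 over libraries, exact p = 0.906), with a range of 6 to 22 residues for the 3 genes. N bases, the untemplated bases at both joints, averaged 7.53 against 7.42 (exact p = 0.719). IGHJ2 was the most used J gene, with 37.7% of cells, followed by IGHJ4 with 23.1%, IGHJ3 with 20.8% and IGHJ1 with 18.4%. For IGHJ4 the libraries averaged 23.3% in both (exact p = 1), and for IGHJ2 37.7% against 36.5% (exact p = 0.344). IGHJ3 was lower than in other IGHV1 cells in 5 of 6 libraries (20.8% against 23.1% combined) and IGHJ1 higher in 5 of 6 (18.4% against 16.7%), and neither was tested.

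IGHD1-1 was the most used D gene, in 44.0% of the cells with a D call (41.2 to 46.7), against 40.4% (39.3 to 41.5) of other IGHV1 cells, with overlapping intervals. IGHV1-81 had the highest value, 49.0% (44.5 to 53.5), with a range over libraries of 44.8% to 51.7%, all above the 37.4% to 43.8% of other IGHV1 cells. It was followed by IGHV1-82 with 42% (29.3% to 54.7% over libraries) and IGHV1-80 with 39.7% (34.1% to 48%). The library ranges of the 3 genes thus overlapped. IGHD4-1 was in 10.5%, IGHD2-4 in 8.92% and IGHD2-3 in 7.92% of cells of the 3 genes. IGHD2-3 was at 10.4% for IGHV1-80 and at 5.37% for IGHV1-82, with intervals that overlapped.

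The V end of the junction was kept whole to a different degree, although the last 9 germline bases are identical in the printed sequences. The deposited alignment reached the last V base in 84.6% of IGHV1-80, 78.2% of IGHV1-81 and 70.6% of IGHV1-82 cells. IGHV1-80 had between 81.4% and 90.9% in the 6 libraries and IGHV1-82 between 65.5% and 75%, so the 2 did not overlap. An added base can match the germline by chance, which this value does not separate. It was chosen after its values were seen and was not tested.

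V regions of unswitched cells were almost free of mutations. A difference from germline was present in 26 of 1347 unswitched cells of the 3 genes (1.93%, 1.26 to 2.82), and 7 of them reached 1% of V bases. The mean was 0.0166% of bases over libraries, against 0.0246% for other IGHV1 genes, lower in 6 of 6 libraries (exact p = 0.03125, adjusted p = 0.281). That contrast rested on 1 comparison gene, IGHV1-69, of which 224 of 343 unswitched cells (65.3%) differed from their germline call. Without IGHV1-69, an exclusion chosen after seeing the data, other IGHV1 genes had a difference in 1.90% of unswitched cells (1.61 to 2.23), and the mean difference was 0.00103 points with 3 libraries on each side. At 1% or more, the shares were 0.520% for the 3 genes and 0.531% for other IGHV1 genes.

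The V mutation level of switched cells varied more between cells than between the 3 genes and other IGHV1 genes. The 51 cells averaged 2.99% of V bases (SD over cells 3.00, median 2.04%, highest 13.4%), against 2.92% (SD 2.55) in 254 cells of other IGHV1 genes (mean within-library difference 0.194 points, higher in 3 of 6 libraries, exact p = 0.656). With 1 cell per clone the mean difference was 0.459 points, higher in 5 of 6 libraries, and in cells with exactly 1 light chain it was 0.410 points, higher in 3 of 6. IGHV1-81 averaged 4.07% in 14 cells (SD 3.69), IGHV1-82 3.12% in 27 cells (SD 2.86) and IGHV1-80 1.12% in 10 cells (SD 1.01, highest 3.06%). Over all cells, switched or not, V mutation was higher in IGHV1-82 than in IGHV1-80 in 6 of 6 libraries, by 0.161 points on average (exact p = 0.03125, adjusted p = 0.0938). Without the WT sCLN that difference was 0.0961 points. A mean over all cells also reflects the switched share, so this result is not separate from the higher switched share of IGHV1-82. Unswitched cells alone, combined over libraries, averaged 0.0204% for IGHV1-82 and 0.0185% for IGHV1-80. Of the 51 switched cells 6 had no mutation, and the most mutated one was an IGHV1-81 cell of the 5xFAD sCLN.

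Mutations were densest in CDR1 for each gene. In the 51 switched cells 6.05% of CDR1 bases and 4.08% of CDR2 bases differed from germline, against 1.83% in framework 1, 1.42% in framework 2 and 3.63% in framework 3. Counted per cell, 40 codons were replaced and 17 changed silently in CDR1, and 35 and 8 in CDR2. Framework 1 had 27 and 40, framework 2 had 23 and 12, and framework 3 had 122 and 71. The silent excess of framework 1 lay in IGHV1-82 (9 and 25), against 16 and 13 for IGHV1-81 and 2 and 2 for IGHV1-80. Of the 27 switched IGHV1-82 cells 7 were of 1 clone, and silent changes were not counted per clone. Framework 3 was above CDR2 for IGHV1-80 (1.49% and 1.25%) and IGHV1-82 (4.26% and 3.86%). Codons in IMGT numbering most often replaced were codon 36 in CDR1 and codon 74 in framework 3, in 15 clones each of the 43 that hold switched cells. Codon 36 reads agc in all 3 germlines, a triplet known as a preferred target of AID, and codon 74 reads ggc. Codon 70 (aag) was replaced in 12 clones, and codons 64 and 82 in 8 each.

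**Figure D5:**
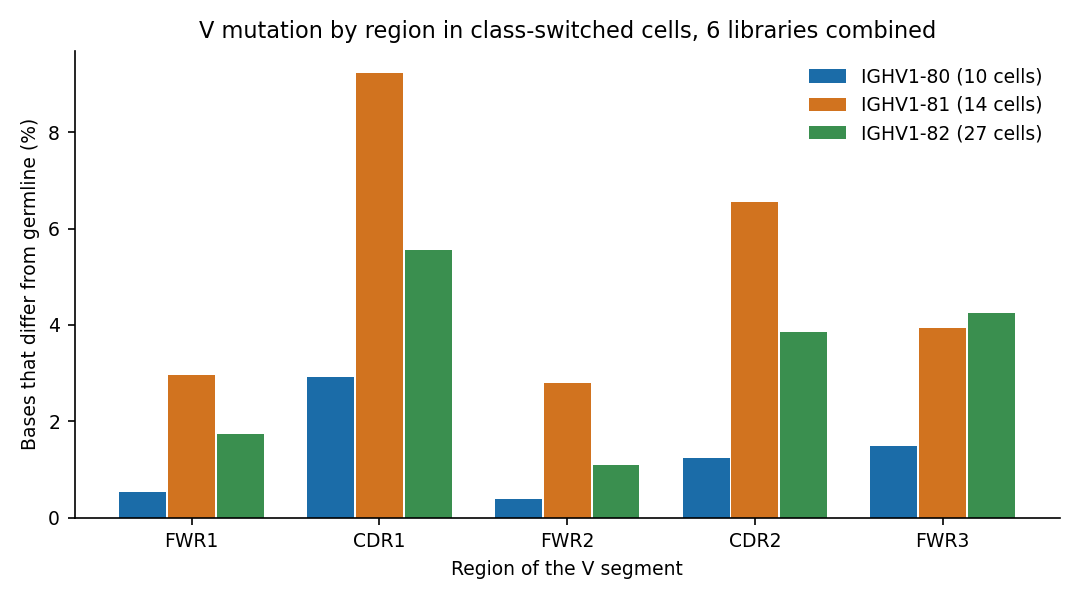
Bases that differ from germline (y axis, percent) by region of the V segment (x axis) in switched IGHV1-80, IGHV1-81 and IGHV1-82 cells, with the 6 libraries combined. Bars carry no error because cells of a clone share mutations. CDR1 is the highest bar for each gene, at 9.23% for IGHV1-81, 5.56% for IGHV1-82 and 2.92% for IGHV1-80.

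Clones were defined by the same V gene, J gene and junction length, with junctions at most 0.15 of their bases apart. At 158 cells per library, the number in the smallest one, the expected share of cells in clones of 2 or more was 14.3% in the WT dCLN and 7.54% in the 5xFAD dCLN. For the sCLN it was 8.44% (WT) and 10.1% (5xFAD), for the iLN 10.5% and 8.86%. The WT dCLN was thus the highest. 5xFAD minus WT came to -6.74 (dCLN), 1.65 (sCLN) and -1.64 (iLN) points, a mean of -2.24 that became 0.00699 without the dCLN. The rule uses the heavy chain alone and can join unrelated cells. It linked cells of different libraries 167 times per 1000000 cell pairs across genotypes, against 185 within a genotype. With the same light chain required, WT and 5xFAD values were 10.9% and 4.65% (dCLN), 5.51% and 5.66% (sCLN), and 5.46% and 6.33% (iLN). How many groups hold unrelated cells was not tested. The WT dCLN also had the most cells with a receptor of identical heavy and light junctions, 49 of 274 (17.9%, 13.5 to 22.9), against 13.3% of other IGHV1 cells there. The other 5 libraries had between 4.66% and 10.3%. Whether repeated receptors are sister cells or RNA of 1 cell under several barcodes was not tested. Between any 2 of the 6 libraries, 0 receptors had the same heavy junction together with the same light chain genes and length, which allows up to 9.45 per 1000000 pairs of cells within a genotype and 6.03 across.

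The clone with the most cells, in the 5xFAD dCLN, used IGHV1-82, IGHD1-1 and IGHJ4 with IGKV4-57 in all 8 cells. Its heavy chain junctions are printed because they show 8 different versions of 1 rearrangement of 45 bases, with capitals at bases that differ from the consensus.
consensus of the 8 cells: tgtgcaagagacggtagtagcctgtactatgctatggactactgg
IgM cell: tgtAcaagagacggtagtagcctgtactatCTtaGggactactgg
IgG1 cell: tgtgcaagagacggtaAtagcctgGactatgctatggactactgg
IgG1 cell: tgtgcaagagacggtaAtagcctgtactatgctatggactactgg
IgG1 cell: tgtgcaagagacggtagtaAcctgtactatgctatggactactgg
IgG1 cell: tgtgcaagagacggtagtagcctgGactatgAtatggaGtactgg
IgG1 cell: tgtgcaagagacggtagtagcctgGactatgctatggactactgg
IgG1 cell: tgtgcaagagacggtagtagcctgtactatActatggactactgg
IgG1 cell: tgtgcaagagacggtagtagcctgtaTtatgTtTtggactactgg
The versions lay between 1 and 4 bases from the consensus, with the IgM cell farthest at 4. V mutation was between 1.02% and 3.06%, with 2.04% in the IgM cell, which had 148 heavy chain UMIs against a median of 14.5 in the clone. The 8 cells had 4 different light chain junctions.

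In the WT dCLN, 5 IGHV1-81 cells with IGHJ4 and IGKV12-44 formed the other clone of 4 or more cells. It is the opposite case, 1 unmutated junction of 42 bases in 2 IgM and 3 IgD cells with 1 light chain junction. These 5 cells had 2 to 15 heavy chain UMIs (median 5), against a median of 9 over single-heavy cells of that library. Whether they are sister cells was not tested.
junction of the 5 IGHV1-81 cells: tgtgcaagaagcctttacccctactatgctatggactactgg
For IGHV1-80, the only clones with 2 or more switched cells were a pair of IgG2b cells with IGKV6-25 and a pair of 1 IgG2b and 1 IgG2c cell, both in the 5xFAD dCLN. The IgG2b pair is shown because its junctions of 48 bases differ at a single base, in capitals, while V mutation was 0% in one cell and 0.680% in the other.
first IgG2b cell: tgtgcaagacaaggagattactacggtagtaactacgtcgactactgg
second IgG2b cell: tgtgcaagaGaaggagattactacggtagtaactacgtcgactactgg
The other pair was joined by the heavy chain alone. It had 2 different light chain junctions, and IGKV6-13 with IGKJ5 was in only 1 of the 2 cells. Each heavy chain junction of 30 bases lay 2 bases from their consensus, at different positions. Whether these 2 cells are related was not tested.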

How the data were processed

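Per the labels' protocols, receptor libraries of lymph node cells were made with a 10x 5' kit. The submitters' processing notes list the build mm10, Seurat 4.1.0 and Cell Ranger 6.0.1, with no role given. The germline set behind the V, D and J calls is not given in the sources used here. The deposited tables hold 1 productive contig per line. UMI and read numbers are counts as the authors deposited them, the V identity is a deposited fraction, and lengths of junctions and N regions count bases, all per the file headers.

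From these, cells with exactly 1 heavy chain were kept; barcodes with several (2.59% to 5.62% per library) were dropped as possible doublets without a doublet caller. The 6 libraries held 2107 to 3904 such cells with 99906 to 312484 immunoglobulin UMIs and median heavy chain UMIs of 9 to 13. Of the 17954 heavy chain barcodes 191 were in 2 or more libraries (1.06%), among them 29 member cells, 0 of which had the same heavy junction there. IgM and IgD cells were called unswitched, IgG, IgA and IgE cells switched. V mutation is the percent of aligned V bases that differ from germline. Light chain shares used cells with exactly 1 light chain. Intervals of shares are exact Clopper-Pearson 95% intervals, and the limit for a count of 0 is 3 counts. Both cover counting error only, and cells of a clone are not independent.

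With 1 library per group there was no test within a node. Genotypes were compared over 3 nodes, and members with other IGHV1 cells or with each other over 6 libraries, by exact two-sided sign-flip tests with Benjamini-Hochberg adjustment over 11, 9 and 15 measures. The smallest p is 0.25 and 0.03125. Other IGHV genes were named by position, use or likeness, light chains by rank (4 per member) and by ratio (3 with 10 or more cells), and clones by size (4 or more cells, or 2 or more switched cells). Alternatives varied cell filters, clone distance, comparison genes and libraries. Members and lists were chosen with earlier results of these data known. Gene positions follow GENCODE M21 (GRCm38, also named mm10). Python 3.11.15, pandas 2.3.3 and scipy 1.17.1 were used, and the mutation counter, clone linking, tests and intervals were tested on simulated data.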

Additional observations from a re-analysis of the deposited data

Results flagged for a closer look

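The library that pooled every node and genotype was kept out of the comparisons. Its switched share was higher than over the 6 libraries for cells of all genes, at 6.93% (5.95 to 8.01) against 3.28% (3.02 to 3.55). IGHV1-80, IGHV1-81 and IGHV1-82 made up 148 of its 2488 single-heavy cells (5.95%, 5.05 to 6.95), below the 7.50% to 8.86% of the 6 other libraries. IGHV1-80 was at 1.49%, IGHV1-81 at 2.85% and IGHV1-82 at 1.61%. Of the 134 of these cells with a constant region call, 19 were class-switched (14.2%, 8.76 to 21.3), against 3.65% over the 6 libraries. Other IGHV1 cells of the mixed library were at 5.61% (4.36 to 7.10), against 2.97%. IGHV1-82 had 9 of 37 switched cells (24.3%, 11.8 to 41.2), IGHV1-80 6 of 37 (16.2%, 6.19 to 32.0) and IGHV1-81 4 of 60 (6.67%, 1.85 to 16.2). IGHV1-82 was the highest there too, with overlapping intervals. IGHV1-80, the lowest over the 6 libraries, was here above IGHV1-81. A constant region call was present in 37 of 37 IGHV1-80 cells but in only 60 of 71 IGHV1-81 cells of this library. Node and genotype of the cells of the mixed library are unknown, and the difference from the 6 libraries was not tested.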

How the results depend on the processing

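The 29 results were recomputed under 360 alternatives, of which 39, in 15 results, changed sign. No result passed an adjusted 0.05 in any setting, and tests over 3 nodes or 5 libraries could not (smallest p 0.25 and 0.0625). Tests over 6 libraries could do so only if most comparisons adjusted together reached their smallest p. Among the results that never changed sign were the larger share of IGHV1-81 (0.468 to 0.684 points over IGHV1-80 and -0.660 to -0.491 for IGHV1-82 minus IGHV1-81 with each library left out), the higher switched share of IGHV1-82 (3.57 to 4.75 over IGHV1-80 and 2.95 to 4.36 over IGHV1-81 with a library left out, 3.00 and 2.56 with exactly 1 light chain), the IgD difference (3.67 to 6.35 with a library left out) and the lambda difference (1.79 to 2.66).

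Genotype difference of the summed share: 0.0377 points with exactly 1 light chain, 0.0105 with identical receptors counted as 1 cell, and -0.489 to 0.227 with a node left out. For IGHV1-80 alone these were 0.00415 and -0.433 to 0.220. Against other IGHV1 cells, the IGHJ4 difference became -0.0109 points with at least 3 UMIs, -0.549 with 1 light chain, -0.0182 without joint V calls, -0.0214 without shared barcodes, -1.90 against all other genes and -0.0385 without IGHV1-69, and ran from -0.627 to 0.864 with a library left out. Junction length became 0.0327 residues without joint V calls and ran from -0.0482 to 0.0186. With a library left out V mutation of switched cells ran from -0.0655 to 0.363 points and N length from -0.0676 to 0.215 bases. Against all other genes these were 0.373 and 0.386, and V mutation of unswitched cells became 0.00103 without IGHV1-69.

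Between members, IGHV1-82 minus IGHV1-80 became -0.00557 (share) with 1 cell per clone and -0.0204 (share) and -0.354 (IGHJ4) without shared barcodes. With a library left out it ran from -0.0595 to 0.175 (share), -0.0864 to 0.25 (junction length) and -1.59 to 2.96 (IGHJ4). With 1 cell per clone junction length became -0.0349 for IGHV1-81 minus IGHV1-80 and 0.0457 for IGHV1-82 minus IGHV1-81, and left-out libraries gave -0.0439 to 0.343 and -0.268 to 0.0404. The IGHJ4 differences of these pairs ran from -2.59 to 0.997 and from -0.260 to 3.09. The cause of these changes was not tested. The clone difference between genotypes, -2.24 points, was -2.85 to -1.25 under other clone rules, under which the dCLN alone was negative, and -4.19 to 0.00699 with a node left out, a setting chosen after seeing the data. Switched shares rest on 10 to 27 cells per gene, so a single clone can move them.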

Other observations

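Cells with 100 or more heavy chain UMIs, a level seen in antibody-secreting cells, were rare among the 3 genes. They were 4 of 1426 cells (0.281%, 0.0765 to 0.717), against 39 of 8659 cells of other IGHV1 genes (0.450%, 0.320 to 0.615). An IGHV1-81 IgG2c cell of the WT sCLN had 1534 UMIs and 2.72% V mutation. The other 3 were in the 5xFAD dCLN: an IGHV1-80 IgA cell with 558 UMIs and 2.04% mutation, an IGHV1-80 IgG3 cell with 166 UMIs and 0.340% mutation, and the IgM cell of the IGHV1-82 clone with 148 UMIs.

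Of the 7 unswitched cells with 1% or more V mutation, all were IgM. The highest value was 4.76%, in an IGHV1-81 cell of the WT dCLN with 63 UMIs, followed by 3.74% in an IGHV1-80 cell of the 5xFAD dCLN with 19 UMIs. Joined by heavy chain similarity alone, groups of these genes recurred between libraries 60 times within a genotype and 85 times across, at 185 (141 to 238) and 167 (134 to 207) per 1000000 pairs of cells, with overlapping Poisson intervals.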
